A study of Mus musculus with 16 samples.

Results

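The libraries described here come from Dicer -/- mouse mesenchymal stem cells (strain C57BL/6) transfected either with hsDicer, the intact human enzyme, or with human Dicer carrying both D1320A and D1709A (labelled IIIA/IIIB, here the double mutant). They were chosen by these labels and number 4 of 16 libraries, 2 in each group. Small RNA of 15 to 50 nt had been cut from a gel of total RNA and sequenced, in a study of how the domains of human Dicer act on miRNA precursors in cells. Both groups lack mouse Dicer and share everything in the labels but the transfected protein, and the share of cells that took up the plasmid is not given in the sources used here. Knockout cells that carry mCherry instead of Dicer are quoted beside some results as the level without any added Dicer.

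miRNAs are cut from hairpins in 2 steps. Drosha frees the hairpin in the nucleus, which sets the 5′ end of the 5p arm and the 3′ end of the 3p arm, and Dicer then cuts off the terminal loop, which sets the other end of each arm. The RNase IIIA domain of Dicer cuts the 3p strand and the RNase IIIB domain the 5p strand, and D1320A and D1709A each change a residue of one of these catalytic sites. In mesenchymal cells miR-21a, miR-22, miR-29 and the let-7 family are among the miRNAs usually abundant.

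The comparison turns on a small set of abundant miRNAs, printed here from RefSeq (GRCm38.p6) with the seed, bases 2 to 8, in capitals. The first 3 are 3p arms and the rest 5p arms, and let-7c with let-7i, and miR-26a with miR-26b, share a seed.
miR-22-3p: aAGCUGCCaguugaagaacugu
miR-29b-3p: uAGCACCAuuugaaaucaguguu
miR-24-3p: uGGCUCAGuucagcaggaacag
miR-21a-5p: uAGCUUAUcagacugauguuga
let-7c-5p: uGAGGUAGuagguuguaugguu
let-7i-5p: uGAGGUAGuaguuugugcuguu
miR-31-5p: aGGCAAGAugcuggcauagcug
miR-125b-5p: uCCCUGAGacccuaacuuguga
miR-26a-5p: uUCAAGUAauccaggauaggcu
miR-26b-5p: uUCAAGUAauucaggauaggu
miR-22-3p lies on chromosome 11 at 75463772 to 75463793 (plus strand) and miR-21a-5p on the same chromosome at 86584120 to 86584141 (minus strand).

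The 4 libraries held 14415661 and 18778950 inserts of 15 nt or more with hsDicer and 16461445 and 19002751 with the double mutant (replicates 1 and 2). Levels are CPM, the usual scaling of read counts to the total of these inserts. The sequencer read 41 bases in replicate 1 but 51 in replicate 2, so inserts were seen whole up to 36 and 46 nt, and values are given for each replicate number. The labels do not say that replicates came from separate cultures, so the spread behind the p-values may be technical. For arms and genes, edgeR's test took that spread from a trend over abundance in all 16 libraries. Its p-values therefore do not measure the spread of a single arm between the 4 libraries compared. Reads are not separate molecules, so any limit set by a count covers only counting error. The list of fibroblast and mesenchymal miRNAs summed to 262339 and 110229 CPM with hsDicer, most of it from miR-22-3p, miR-21a-5p and miR-29b-3p. The blood list (miR-142, miR-144, miR-150 and others) summed to 0 and 0.0533 CPM and the epithelial list to 0 and 1.28 CPM. The endothelial list summed to 437 and 60.1 CPM. Such sums do not identify the cell type by themselves. Short reads of the transfected Dicer transcripts were not analysed here, so the labels of the 2 groups have no check of their own beyond the miRNAs.

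Before the results, 2 features of the libraries matter. The replicate 1 libraries of hsDicer and the double mutant shared reads. Of 152 fragments without a miRNA match that reached 2000 reads in hsDicer replicate 1 and were absent from every replicate 2 library, 148 were also found in double mutant replicate 1, at a median of 0.0695% of their hsDicer count. In the other direction 396 of 425 such fragments of double mutant replicate 1 were found in hsDicer replicate 1, at a median of 0.0901%. Such fragments of knockout replicate 1 stood in double mutant replicate 1 at a median of 0.00879% (78 of 128 found). Those of replicate 1 of wild type, K70A and Y971A/Y972A stood there at a median of 0% (44 of 153, 40 of 186 and 121 of 290 found). Double mutant replicate 1 also held few distinct reads per miRNA. Of its 19 arms of 100 CPM or more, 17 took 95% or more of their reads from 1 sequence, and 16 stood under 100 CPM in replicate 2. Low variety was not confined to this library. Fewer arms had reads in replicate 1 than in replicate 2 with hsDicer too (181 against 400), as with the double mutant (146 against 246). The part of either feature in the results was not tested, and values of both are given again below.

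Nearly all miRNA was missing with the double mutant. Reads of 18 to 26 nt that matched miRNA hairpins made up 38.1% and 14.4% of inserts with hsDicer (replicates 1 and 2) and 0.789% and 0.356% with the double mutant. The share was 48.2-fold lower within replicate 1 and 40.5-fold lower within replicate 2, and both double mutant libraries lay below both hsDicer libraries. The 2-sided exact permutation test gave p = 0.333 for the difference of -25.7 percentage points, the smallest p that 2 against 2 libraries allow. The knockout with mCherry held 1.54% and 0.293%, so that the double mutant libraries lay inside the range of the knockout.

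The loss ran through the abundant arms. With scaling to all inserts, 43 of 540 arms tested (7.96%) fell with the double mutant and 0 (0%) rose, by edgeR's quasi-likelihood test with Benjamini-Hochberg adjusted p under 0.05. Of the 43, 26 were 5p arms among 278 tested and 17 were 3p arms among 262. The libraries of the groups did not overlap for any of these 43, and over all 540 arms both double mutant libraries lay below both hsDicer libraries for 125 (23.1%) and above them for 3 (0.556%). The count of arms that fell was 10 without double mutant replicate 1, 14 without double mutant replicate 2, 21 without hsDicer replicate 1 and 54 without hsDicer replicate 2. With TMM scaling 0 arms fell and 1 rose, and with DESeq2's size factors 9 fell and 25 rose. These scalings, computed from the miRNA arms, moved the median log2 change of all 540 arms from -5.98 to -2.58 and 0, while the directions given here are relative to all inserts.

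miR-22-3p, the most abundant arm with hsDicer, stood at 108798 and 40472 CPM with hsDicer and at 1150 and 352 CPM with the double mutant. On the log2 scale it fell by 6.63 (SE 0.75), with an adjusted p of 4.62e-16 in edgeR's test. miR-29b-3p, which targets collagen transcripts, stood at 40354 and 23678 CPM with hsDicer and at 265 and 174 CPM with the double mutant, and fell by 7.19 (SE 1.05). For both arms each double mutant library lay far below each hsDicer library. miR-24-3p, part of the miR-23, miR-27 and miR-24 clusters, stood at 6009 and 9609 CPM with hsDicer and at 3.71 and 73.3 CPM with the double mutant. It fell by 7.66 (SE 1.53), and its level in double mutant replicate 1 was far below that of replicate 2.

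miR-21a-5p, an arm often raised in tumours and fibrosis, was the most abundant arm left. It stood at 56011 and 14247 CPM with hsDicer and at 2583 and 1387 CPM with the double mutant, and fell by 4.15 (SE 0.88), adjusted p = 1.88e-04 by edgeR. This was the smallest fall among the 43 arms, and its sign turned with TMM (1.27) and with DESeq2's size factors (3.49). miR-31-5p stood at 4984 and 4816 CPM with hsDicer and at 134 and 57.1 CPM with the double mutant, and fell by 5.68 (SE 1.52). miR-125b-5p, of a family that takes part in differentiation, stood at 7823 and 1624 CPM with hsDicer and at 124 and 63.3 CPM with the double mutant, and fell by 5.66 (SE 1.44). Of these 3 5p arms miR-21a-5p was the highest in all 4 libraries, while the order of miR-31-5p and miR-125b-5p differed between the replicates in both groups. miR-96-5p, of the miR-183 cluster, stood at 5287 and 4531 CPM with hsDicer and at 9.11 and 54.9 CPM with the double mutant, and fell by 7.26 (SE 1.76).

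**Figure D1:**
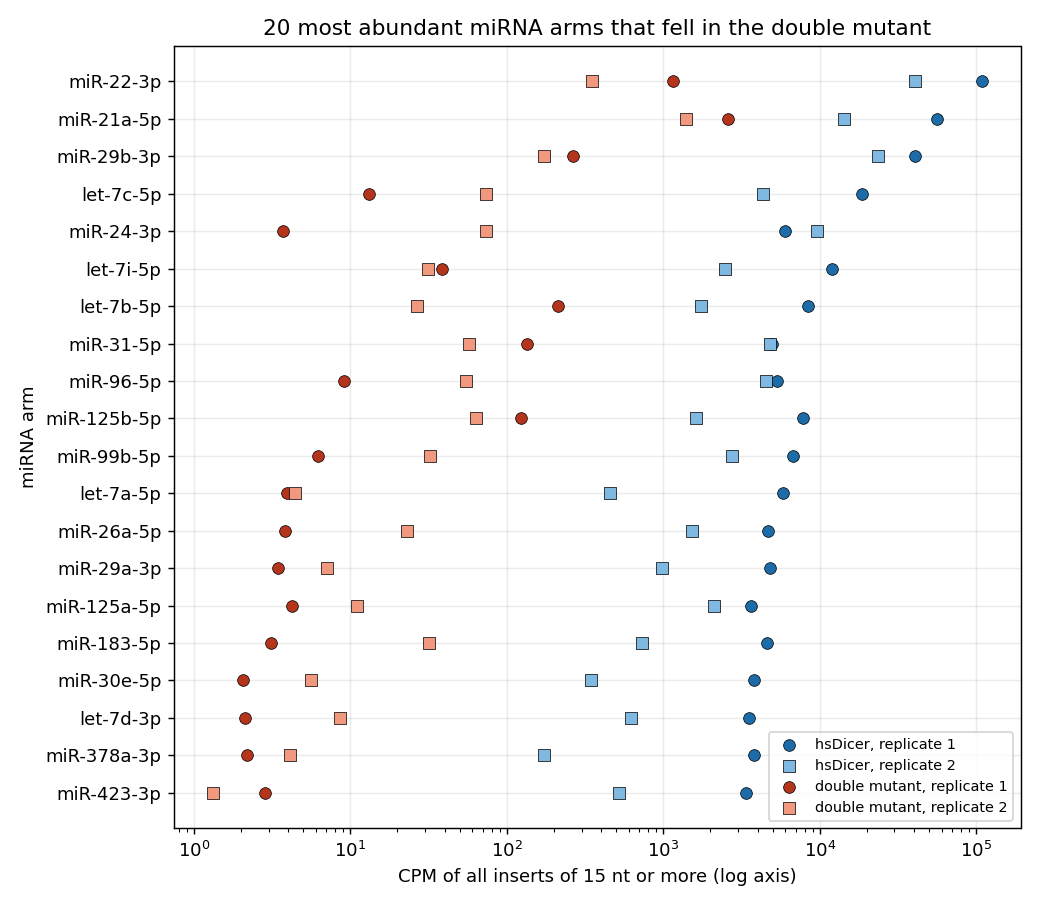
CPM (log axis) of the 20 most abundant arms that fell, one row per arm and one point per library. Both double mutant libraries of every arm lie left of both hsDicer libraries, miR-22-3p at 1150 and 352 against 108798 and 40472 CPM and miR-21a-5p at 2583 and 1387 against 56011 and 14247 CPM.

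Among arms that passed the test and averaged 10 CPM or more, the deepest falls were those of miR-191-5p, miR-27b-3p, miR-155-5p, miR-93-5p, miR-10b-5p and miR-22-5p, between -10.63 and -10.28 on the log2 scale. All 6 stood under 2 CPM in both double mutant libraries. In replicate 1 they stood between 0.0128% (miR-22-5p) and 0.0741% (miR-10b-5p) of their hsDicer level, no higher than 2 times the 0.0695% of the shared fragments, whose part in these values was not tested. miR-191-5p stood at 1047 and 185 CPM with hsDicer and at 0.607 and 0.158 CPM with the double mutant, the latter no more than the 0.158 CPM that 3 reads give. miR-155-5p, best known from immune cells, stood at 1705 and 38.9 CPM with hsDicer and at 1.15 and 0.105 CPM with the double mutant. miR-10b-5p differed between the knockout libraries (1412 and 0 CPM) and between the hsDicer libraries (328 and 6.87 CPM), and stood at 0.243 and 0 CPM with the double mutant.

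Of 18 let-7 arms, which hold back proliferation, 7 fell and none rose. let-7c-5p stood at 18675 and 4336 CPM with hsDicer and at 13.1 and 74.0 CPM with the double mutant, a change of -8.04 (SE 1.41). let-7i-5p stood at 11882 and 2474 CPM with hsDicer and at 38.3 and 31.3 CPM with the double mutant (-7.69, SE 1.59), let-7b-5p changed by -5.40 (SE 1.49) and let-7a-5p by -9.54 (SE 2.32). The family's summed level was 75.05-fold and 66.8-fold lower in replicates 1 and 2. With groups of under 3 reads set to 3 reads, the median log2 ratio was -6.84 over the 17 let-7 arms above that floor and -4.81 over the 408 arms above it among all 540. let-7e-5p did not pass: it stood at 1718 and 255.9 CPM with hsDicer and at 483.7 and 5.42 CPM with the double mutant.

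Of 64 arms of the fibroblast and mesenchymal list 20 fell and none rose, with a median ratio of -6.54 on the same floor. Their summed level was 262339 and 110229 CPM with hsDicer and 4508 and 2472 CPM with the double mutant. The growth-promoting miR-17-92 group with its related clusters had 20 arms tested, with a median ratio of -6.36, and 2 of them fell: miR-92-3p changed by -9.38 (SE 2.57) and miR-93-5p by -10.41 (SE 3.57). miR-17-5p, at 1063 and 207 CPM with hsDicer and at 0.790 and 0.368 CPM with the double mutant, had an adjusted p of 0.0585 by edgeR. Of 6 arms of the miR-183 cluster the 3 on the 5p side fell, with changes of -7.25 (SE 2.21) for miR-183-5p and -7.85 (SE 2.54) for miR-182-5p beside miR-96-5p. The members and lists were read against the 7.96% of all arms that fell, and abundant arms passed more easily because the spread was taken from a trend over arms of like abundance.

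miRNAs that skip other steps of the pathway were looked at by name. miR-320 and miR-484 come from capped precursors that need no Drosha cut but are known to need Dicer. miR-320-3p stood at 993 and 172 CPM with hsDicer and at 0.668 and 3.53 CPM with the double mutant, a log2 change of -8.11 (SE 2.91) with an adjusted p of 0.0585 by edgeR. miR-484-5p stood at 438 and 138 CPM with hsDicer and at 0.364 and 0.526 CPM with the double mutant (adjusted p = 0.124 by edgeR). The groups did not overlap for either arm. Of 19 arms of the list of capped precursors and mirtrons 0 passed edgeR's test, with 2 at an unadjusted p under 0.05, and the median ratio was -4.39. miR-451a, which Argonaute 2 cuts in place of Dicer, had no reads of 18 to 26 nt in either hsDicer library or in double mutant replicate 1 and stood at 8.42 CPM in double mutant replicate 2 and 2.82 CPM in knockout replicate 2 (adjusted p = 0.534 by edgeR). Reads that ran past its RefSeq end, of any length, stood at 1.70 CPM in hsDicer replicate 2 and 4.47 CPM in double mutant replicate 2.

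Marker miRNAs of other cell types were low in all 4 libraries, except endothelial miR-126a-3p with hsDicer. The pluripotent, neuronal and muscle lists summed to 18.2, 22.1 and 43.8 CPM at most with hsDicer, and to 0, 0.0526 and 5.32 CPM at most with the double mutant, and none of their 10 arms tested passed. miR-206-3p, of skeletal muscle, stood at 0.139 and 42.1 CPM with hsDicer and at 0.121 and 5.32 CPM with the double mutant. miR-126a-3p, of endothelium, stood at 437 and 58.3 CPM with hsDicer and at 0.182 and 0.158 CPM with the double mutant (adjusted p = 0.0639 by edgeR), and liver miR-122-5p was read in 1 of the 4 libraries, double mutant replicate 2, at 3.37 CPM. In such bulk samples fewer cells of a type and less RNA per cell cannot be told apart.

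The miRNA reads that were left were a different mixture from those with hsDicer. The knockout also differed from hsDicer, with 69.1% and 65.8% of miRNA reads from 5p arms and 21.2% and 27.9% from miR-21a-5p. With the double mutant 72.7% and 72.6% of miRNA reads came from 5p arms, against 49.4% and 41.7% with hsDicer, without overlap (exact permutation p = 0.333). miR-21a-5p alone held 32.7% and 38.9% of the double mutant's miRNA reads, and 14.7% and 9.88% of those with hsDicer. miR-22-3p was next with 14.6% and 9.87%, where it had held 28.6% and 28.1% with hsDicer. In each of the 4 libraries 3 arms were enough for 50% of the miRNA reads.

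Relative to all miRNA reads, edgeR called 1 of 540 arms (0.185%) higher with the double mutant and 0 (0%) lower. The arm that passed, miR-350-5p, was named after its values were seen: it stood at 0.347 and 0 CPM with hsDicer and at 0.121 and 4.79 CPM with the double mutant, so that 1 library holds nearly all of its reads. The gains and losses of share below are therefore descriptions. By the difference of mean shares miR-21a-5p gained most, 23.5 percentage points, followed by let-7e-5p (2.83), miR-5121-3p (2.79), miR-532-5p (2.33), miR-16-3p (2.14) and miR-423-5p (1.74). miR-22-3p had the largest loss of share (-16.1 points), followed by miR-29b-3p (-9.39), miR-24-3p (-3.07), let-7c-5p (-2.83), let-7i-5p (-1.74) and miR-96-5p (-1.44).

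The 2 replicates of the double mutant gave unlike lists below the leading arms. let-7e-5p held 6.13% of miRNA reads in replicate 1 and 0.152% in replicate 2, miR-16-3p 3.98% and 0.533%, miR-30a-5p 3.57% and 0.159%, and miR-423-5p 3.35% and 0.371%. All 4 were thus far higher in replicate 1 than in replicate 2. miR-532-5p (210 and 76.8 CPM) and miR-5121-3p (245 and 88.5 CPM) were closer between the replicates. miR-5121-3p stood at 0.416 and 11.9 CPM with hsDicer and was, with miR-3470b-5p and miR-6236-5p, one of the 3 arms whose double mutant libraries lay above both hsDicer libraries. It took 99.8% of its replicate 1 reads from 1 sequence, and its adjusted p was 0.551 with scaling to all inserts and 0.0925 relative to miRNA reads, by edgeR.

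The arms of double mutant replicate 1 were also set beside the level of the shared fragments. Of 94 arms with 2000 or more reads in hsDicer replicate 1, 75 stood in double mutant replicate 1 at no more than 2 times the 0.0695% of the fragments above, and the median over all 94 was 0.0802%. let-7c-5p, miR-24-3p and the 6 arms with the deepest falls are among those 75, while miR-22-3p, miR-29b-3p, miR-21a-5p, miR-31-5p, miR-125b-5p, let-7b-5p and let-7i-5p lay above. In replicate 2, 76 arms with 2000 or more reads with hsDicer stood at a median of 1.17% with the double mutant. The cut of 2 times the median was a choice, and the quartiles of the fragments themselves were 0.0478% and 0.0956%. The part of shared reads in the levels of these 75 arms was not tested.

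No shift of arms within hairpins was called. Of 183 hairpins with 20 or more reads on each arm, 0 (0%) passed the test of the 5p to 3p ratio by edgeR, and 0 had an unadjusted p under 0.05. The SE of the log2 change in this ratio was large, from 3.88 (miR-24) to 23.5 (let-7c) among the hairpins named below. With such a spread the test could miss large shifts, so the count of 0 does not show that arm use was level. Among the 6 hairpins with most reads, miR-22 gave 0.433% and 0.370% of its reads from 5p with hsDicer and 0.0053% and 0.119% with the double mutant. miR-24 gave 20.1% and 17.6% with hsDicer and 25.6% and 29.1% with the double mutant, and miR-21a and let-7c stayed above 99% from 5p in all 4 libraries. let-7i gave 100% and 99.0% with hsDicer and 100% and 85.0% with the double mutant. miR-29b gave 0% and 0.0879% with hsDicer and 0% and 5.90% with the double mutant, from 207 5p and 3301 3p reads in the last library.

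Where the reads ended separated the groups more sharply than which arm they came from. RefSeq gives mature ends for 239 5p arms and 216 3p arms, and reads were sorted by whether the end that Dicer makes lay within 1 nt of the mature end or 2 nt or more beyond it, towards or into the loop. The other end had to lie within 1 nt of the mature end. 5p reads with the usual ends summed to 154976 and 50791 CPM with hsDicer and to 1012 and 561 CPM with the double mutant, 153-fold and 90.5-fold lower. Both double mutant libraries lay below both hsDicer libraries for 64 of the 239 arms (26.8%) and above for 0 (0%). 3p reads with the usual ends summed to 180576 and 81324 CPM with hsDicer and to 1437 and 668 CPM with the double mutant, 126-fold and 122-fold lower, with 43 of 216 arms (19.9%) lower without overlap and 0 (0%) higher.

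5p reads that ran 2 nt or more past the mature end were closer. They summed to 19510 and 10520 CPM with hsDicer and to 8159 and 6740 CPM with the double mutant, 2.39-fold and 1.56-fold lower, with 11 of 239 arms (4.6%) lower without overlap and 9 (3.77%) higher. They were therefore 88.7% and 91.4% of the 5p reads of the double mutant and 10.95% and 16.98% of those with hsDicer, and 83.2% and 90.2% against 7.68% and 12.5% when miR-21a was left out. The knockout held 10635 and 13157 CPM of them. For miR-26a-5p, reads with the usual ends stood at 4655 and 1514 CPM with hsDicer and at 3.83 and 18.1 CPM with the double mutant. Those that ran past stood at 0.0694 (1 read) and 364 CPM with hsDicer and at 159 and 284 CPM with the double mutant. Its reads of 30 nt or more that spanned the middle of the hairpin stood at the same levels. Such reads, described below, count among those that ran past where they start at the mature 5′ end. Most of them had no adapter, so their 3′ ends were not seen. For miR-31-5p the reads that ran past stood at 0.208 and 164 CPM with hsDicer and at 0.182 and 128 CPM with the double mutant. Both replicate 1 values are what 3 reads give, so only replicate 2 compares the levels, and there they were close.

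**Figure D2:**
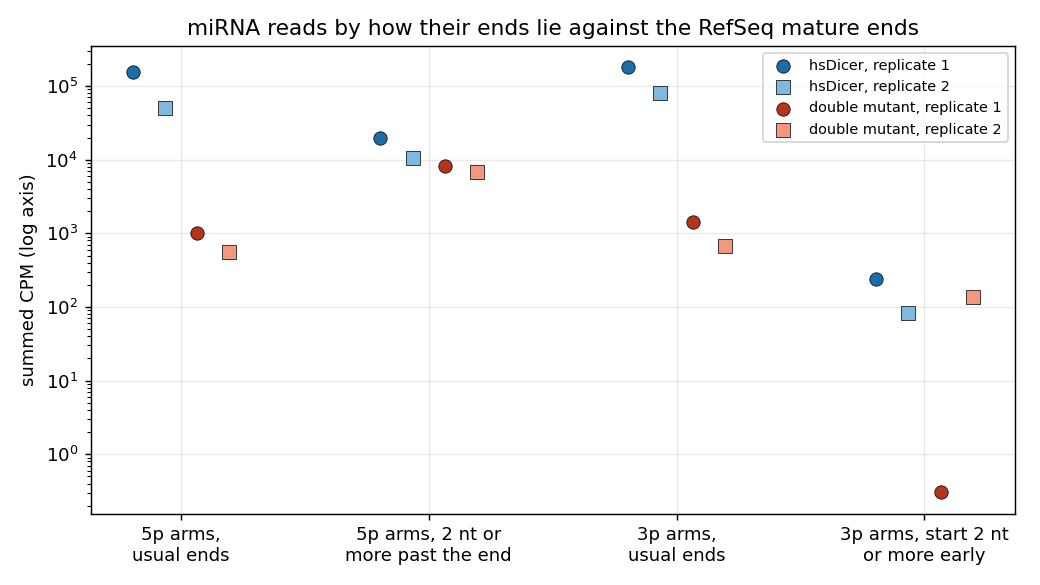
Summed CPM (log axis) of 5p and 3p reads, by whether the end that Dicer makes lies at the RefSeq mature end or 2 nt or more beyond it, one point per library. Usual ends are 153-fold and 90.5-fold (5p) and 126-fold and 122-fold (3p) lower with the double mutant, while 5p reads that run past differ 2.39-fold and 1.56-fold.

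3p reads that ended as usual but started 2 nt or more early were few in all libraries. The hsDicer libraries held 241 and 81.9 CPM of them and the double mutant libraries 0.304 and 135 CPM, so that the groups overlapped, with 2 of 216 arms (0.926%) lower and 1 (0.463%) higher without overlap. They made up 16.5% of the 3p reads of double mutant replicate 2 and 0.0211% of those of replicate 1.

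miR-21a showed the change of ends base by base. Its reads are printed from the hairpin on chromosome 11 (GRCm38, 86584067 to 86584158, minus strand), with the bases past the 22 nt RefSeq arm in capitals, because the 23 nt and the 24 nt read differ by 1 base and went apart.
23 nt: tagcttatcagactgatgttgaC
24 nt: tagcttatcagactgatgttgaCT
27 nt: tagcttatcagactgatgttgaCTGTT
The 23 nt read, the most abundant with hsDicer, stood at 37360 and 8403 CPM with hsDicer and at 179 and 97.4 CPM with the double mutant. The 24 nt read stood at 9888 and 3721 CPM with hsDicer and at 2399 and 1135 CPM with the double mutant, which is 24.3% and 30.5% of the hsDicer level. The 27 nt read was higher with the double mutant in both replicates, 257 and 257 CPM with hsDicer against 912 and 583 CPM, and it stood at 2.32 and 488 CPM in the knockout. With hsDicer the 23 nt read was the most abundant in both libraries, and with the double mutant the 24 nt read was.

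The 24 nt reads of the same start whose last base is not that of the hairpin differed among themselves. The form with an added A stood at 12931 and 2460 CPM with hsDicer and at 9.54 and 22.7 CPM with the double mutant, 0.0738% and 0.922% of the hsDicer level. The form with an added C stood at 7201 and 1000 CPM with hsDicer and at 32.0 and 5.26 CPM with the double mutant. Both stood below 1% of the hsDicer level, as the 23 nt read did in replicate 1 (0.479%, against 1.16% in replicate 2). The form with an added G stood at 756 and 225 CPM with hsDicer and at 52.5 and 42.4 CPM with the double mutant. This was 6.95% and 18.9% of the hsDicer level, between the 23 nt read and the 24 nt read that matches the hairpin. The knockout held the 24 nt hairpin read at 2709 and 608 CPM and the form with an added A at 46.1 and 37.8 CPM. The longer read that matches the hairpin was thus also present without any added Dicer. A T added to the 23 nt read gives the same sequence, so such reads cannot be told apart from it.

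**Figure D3:**
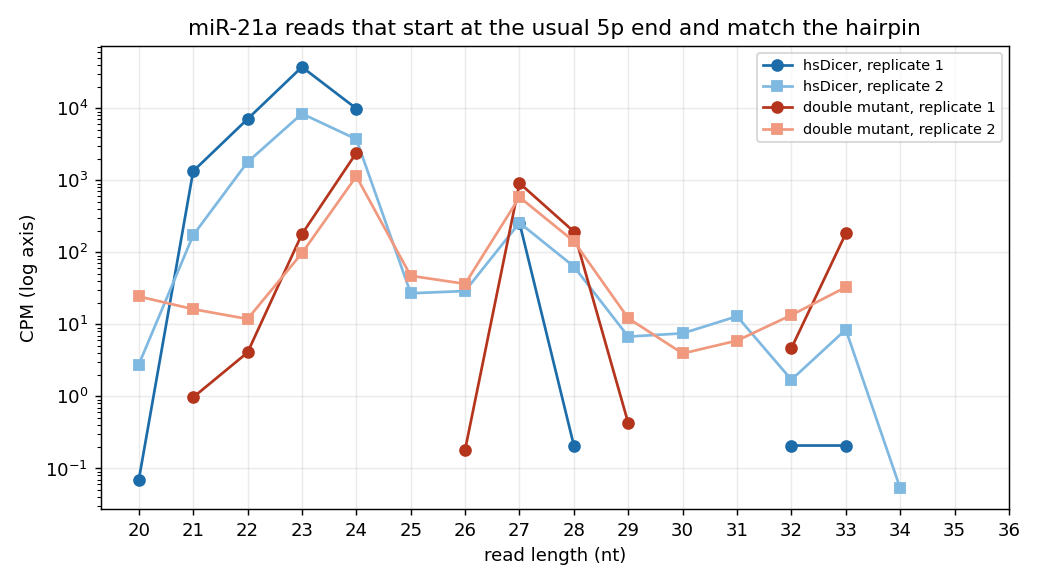
CPM (log axis) of miR-21a reads that start at the usual 5p end and match the hairpin, by read length in nt, one line per library. With hsDicer the peak is at 23 nt (37360 and 8403 CPM), and with the double mutant at 24 nt (2399 and 1135 CPM) with a further peak at 27 nt (912 and 583 CPM).

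Over all hairpins, with miR-21a among them, the lengths shifted as well. Hairpin reads of 24 nt made up 0.292% and 0.135% of the double mutant's inserts. miR-21a gave most of these, 2399 and 1135 CPM, and its 27 nt read stood at 912 and 583 CPM. Lengths without miR-21a were not computed, so the shift at 24 nt is not shown for other hairpins. Of reads of 15 nt or more that matched only miRNA hairpins, 89.6% and 89.4% were 21 to 23 nt long with hsDicer, and 26.3% and 15.2% with the double mutant. Reads of 24 nt made up 7.71% and 5.49% with hsDicer and 24.1% and 14.7% with the double mutant, and reads of 27 to 36 nt 0.220% and 0.446% against 23.3% and 13.4%. None of these 3 length ranges overlapped between the groups, nor did reads under 20 nt (0.364% and 0.129% against 0.477% and 1.55%), with an exact permutation p of 0.333 each, before and after adjustment over the 4 ranges.

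**Figure D4:**
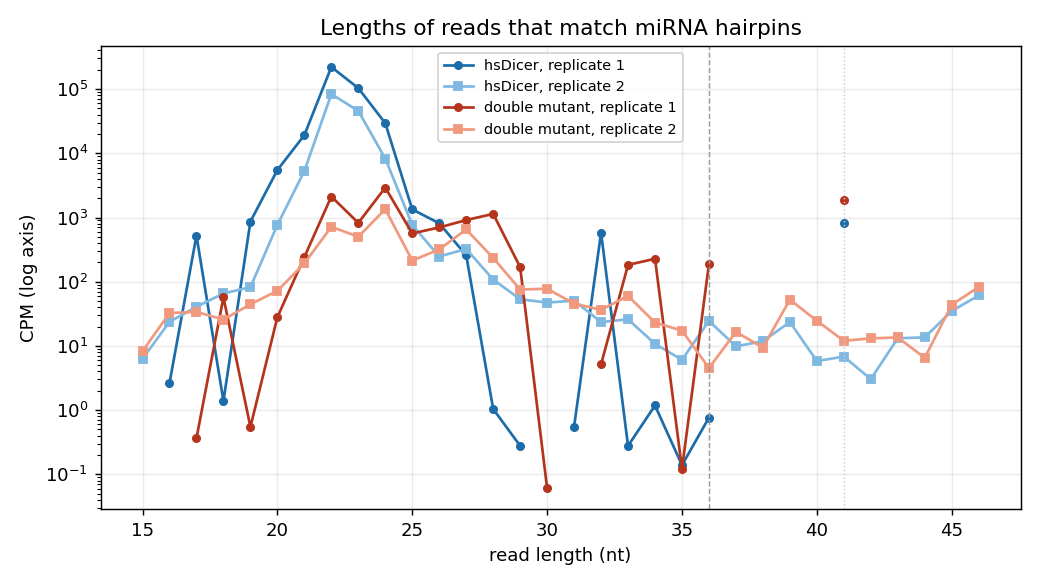
CPM (log axis) of reads that match miRNA hairpins, by read length in nt, one line per library. The dashed line at 36 nt is the longest insert seen whole in replicate 1, and the points of replicate 1 at 41 nt (dotted line) are reads without adapter. The hsDicer peak at 22 and 23 nt is far lower with the double mutant, while beyond 25 nt the libraries cross.

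Reads of 30 nt or more that spanned the middle of a hairpin would hold precursors whose loop was not cut. Their levels overlapped between the groups, and the 2 replicates went opposite ways. The hsDicer libraries held 1400 and 5185 CPM of them and the double mutant libraries 2448 and 4632 CPM (exact permutation p = 1). The knockout held 4116 and 12186 CPM. With 2 libraries in each group, the test cannot show that the levels were equal. As a share of hairpin reads, these long reads made up 0.367% and 3.46% with hsDicer and 20.2% and 50.6% with the double mutant. The groups did not overlap in this share, which was 19.7% and 76.1% in the knockout. Where RefSeq gives a 5p start, 90.2% and 97.6% of the double mutant's loop-spanning reads, and 99.9% and 98.0% of those with hsDicer, began within 1 nt of it. Of these reads 75.3% and 91.2% with the double mutant had no adapter, so their 3′ ends were not seen.

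Among 175 hairpins with loop-spanning reads in the 4 libraries, both double mutant libraries lay above both hsDicer libraries for 6 (3.43%) and below for 5 (2.86%). The 6 were miR-193a, let-7e, miR-125a, miR-23a, miR-378a and miR-140, and the 5 were miR-182, miR-125b, miR-15b, miR-30c and miR-93. Of the 6, miR-193a had the most such reads, 0 and 64.8 CPM with hsDicer against 152 and 349 CPM with the double mutant. miR-26b held the most such reads, at 151 and 1615 CPM with hsDicer and at 306 and 1239 CPM with the double mutant, overlapping. In replicate 1 such reads came from 30 hairpins with hsDicer and 27 with the double mutant, and in replicate 2 from 151 and 140.

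Other classes of small RNA took a larger share of the double mutant's inserts. Of 20 classes besides miRNA hairpins, both double mutant libraries lay above both hsDicer libraries in 10 (50%) and below in 0 (0%). All shares are of the same inserts, so the loss of miRNA raises every other share, and the exact permutation p was 0.333 at best, 0.667 after adjustment over 22 classes. Y RNA, whose fragments come from the RNA partners of the Ro60 protein, made up 1.72% and 2.37% with hsDicer and 4.05% and 4.16% with the double mutant, and 4.98% and 2.79% in the knockout. Fragments of mRNA made up 1.39% and 1.85% with hsDicer and 3.15% and 3.06% with the double mutant. Mitochondrial rRNA stood at 0.445% and 0.323% against 0.971% and 0.753%, and 5S and other annotated rRNA at 0.117% and 0.227% against 0.413% and 0.288%.

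snRNA held 0.131% and 0.233% of inserts with hsDicer and 0.271% and 0.290% with the double mutant, and vault RNA 9.71e-05% and 0.0279% against 0.0663% and 0.0691%. C/D box snoRNA, which guides methylation of rRNA, overlapped at 1.51% and 2.88% against 2.91% and 2.70%, as did H/ACA box snoRNA and the snoRNAs that the annotation names by number only (2.71% and 16.8% against 6.11% and 15.7%). Inserts that matched nothing annotated here made up 44.5% and 47.2% with hsDicer and 71.8% and 46.8% with the double mutant. The reference used here holds no nuclear tRNA and no 45S rRNA, so those RNAs fall among these inserts. Reads of miRNAs with an added base unlike the hairpin fall there too, unless another annotated RNA matches. The miR-21a form with an added A, at 12931 and 2460 CPM with hsDicer, is such a read. Products of the adapters made up 5.76% and 8.46% with hsDicer and 3.58% and 14.1% with the double mutant.

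**Figure D5:**
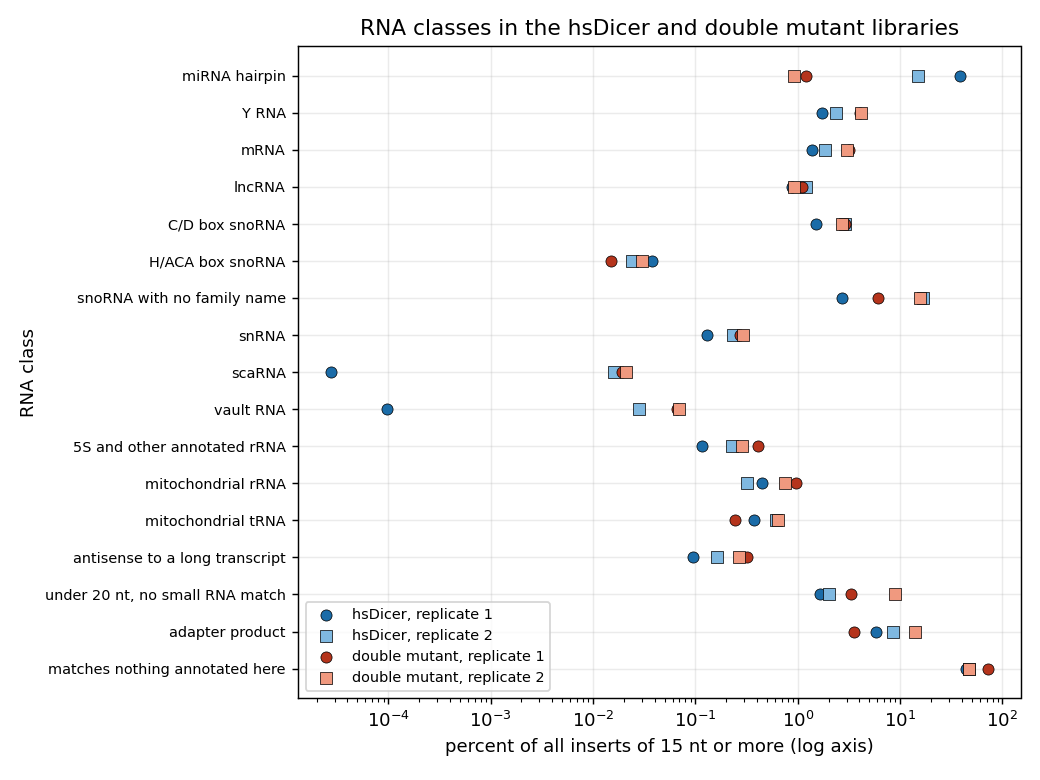
Percent of all inserts of 15 nt or more in each RNA class (log axis), one point per library. Only the miRNA hairpin class lies lower with the double mutant without overlap, while Y RNA, mRNA, mitochondrial rRNA and 5S rRNA lie higher.

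By gene, 0 of 441 other small RNA genes (0%) passed edgeR's test in either direction, with 0 at an unadjusted p under 0.05, while DESeq2 on the same library scale called 3 and DESeq2 with its own size factors 1. The test also missed large changes put into simulated counts when all genes were given 1 common spread, unlike the fit, where the spread followed abundance. The count of 0 does not show that these genes were level. Rny1, the Y RNA with most reads, stood at 15965 and 22658 CPM with hsDicer and at 39548 and 39928 CPM with the double mutant, a log2 difference of 1.04 (SE 0.66). mt-Rnr1, the small mitochondrial rRNA, stood at 544 and 999 CPM with hsDicer and at 3085 and 2361 CPM with the double mutant (1.82, SE 1.57). Both separated without overlap, and neither passed. Rn5s, the 5S rRNA, stood at 1156 and 2215 CPM with hsDicer and at 4085 and 2829 CPM with the double mutant, and Vaultrc5, the vault RNA, at 0.971 and 279 CPM against 663 and 691 CPM. Snord2, the named C/D box snoRNA with most reads, stood at 4300 and 10670 CPM with hsDicer and at 8211 and 10743 CPM with the double mutant, and its groups overlapped. mt-Ts1, a mitochondrial serine tRNA, differed between the double mutant's own libraries, at 7.47 and 2629 CPM against 1202 and 1348 CPM with hsDicer.

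The length profile of all inserts followed the miRNAs. Inserts of 21 to 23 nt made up 46.6% and 21.1% with hsDicer and 11.6% and 10.7% with the double mutant. Without miRNA hairpins and adapter products the same lengths made up 20.2% and 7.79% with hsDicer and 10.9% and 9.76% with the double mutant, overlapping. Hairpin matches had to be exact, so miRNA reads with an added base unlike the hairpin stay in this remainder. Inserts of 18 to 20 nt were more frequent with the double mutant, 5.58% and 14.5% against 3.13% and 4.91%, and 4.82% and 9.66% against 2.13% and 1.86% without adapter products. Inserts of 30 to 36 nt made up 32.4% and 15.1% with the double mutant and 12.2% and 10.3% with hsDicer. None of the separations passed the exact permutation test (p = 0.333 each, 0.600 after adjustment over 9 ranges).

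Single sequences were also counted. Each set below was chosen by its level in the group in which it was then counted as higher. Its share is therefore a description, and the shares of the sets cannot be set against each other. Of 289 inserts of 50 CPM or more in both hsDicer libraries, 133 (46%) stood over 4 times above both double mutant libraries, and 81 of these matched miRNA hairpins only. Of 378 inserts of 50 CPM or more in both double mutant libraries, 26 (6.88%) stood over 4 times above both hsDicer libraries, and 0 of these matched a miRNA hairpin. Of the 26, 23 were 18 to 22 nt long, 10 ended in CCA, the end that mature tRNAs carry, and 2 came from mitochondrial RNA. In all 21 of the 26 had no match, some of them shorter than the 20 nt from which long transcripts were searched.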

How the data were processed

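Small RNA was sequenced from 16 libraries, of which the 2 hsDicer and 2 double mutant libraries are compared here. In the deposited tables the authors give every distinct untrimmed read with its raw count, per the files themselves. No source used here names the tool behind them. The 3′ adapter stated in the labels' protocols was cut off where it matched over 12 bases, or over at least 5 when it ran out of the read. All levels were scaled to inserts of 15 nt or more (10331036 to 20502254 per library). miRNA reads (18 to 26 nt) had to match 1 of 1174 hairpins of GENCODE release M21 (GRCm38) exactly, reads that fitted hairpins of several names were not used, and the hairpin midpoint separated the arms. Other inserts were matched to 3910 small RNA transcripts and, from 20 nt, to long transcripts.

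Arms, ratios and genes with 20 or more reads in total (ratios: on each arm) were tested with edgeR 4.0.16 quasi-likelihood fits (R 4.3.3, 2-sided, all 16 libraries, group only). For arms and genes the prior degrees of freedom were infinite, so SE and p rest on a trend over abundance. SE is the size of the log2 change over the root of F. Single values used exact permutation. DESeq2 1.42.0, TMM and the other alternatives are given at the end. Tests were checked on simulated data, where they found nearly all changes when the spread was low. They found none when every arm or gene was given the common spread of its set (coefficient of variation 2.10 for arms). The fits let the spread follow abundance, so this check does not give their power for abundant arms and genes. Arms and genes not called may still differ. Named arms were the 10 most abundant and 6 deepest of those that passed, the 10 largest shares, 6 gains and 6 losses of share, 6 hairpins, up to 3 genes per class and up to 4 members of each of 13 lists, described in part. Sorting by mature ends, loop starts and single inserts was chosen after seeing the data. The members and lists were chosen with earlier results of these data known. Python 3.11.15 did the counting.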

Additional observations from a re-analysis of the deposited data

Results flagged for a closer look

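A pair of inserts without a match to an annotated RNA, the first counted among those under 20 nt, led the 26 single inserts higher with the double mutant and enter no test by arm or gene. They stood far above their hsDicer level in both double mutant libraries. The first, of 19 nt, averaged 10382 CPM with the double mutant (3300 and 17465) and 76.4 CPM with hsDicer (4.72 and 148). The other is the same sequence with 1 base more, 20 nt in all, and averaged 2396 CPM with the double mutant (2250 and 2542) and 33.6 CPM with hsDicer (2.98 and 64.2). Longer inserts that begin with the 19 nt stood at 6657 and 6956 CPM with hsDicer and at 17341 and 14307 CPM with the double mutant. The 19 nt insert stood at 1625 and 13660 CPM with Y971A/Y972A, at 82.5 and 1833 CPM with D1320A, at 41.6 and 192 CPM with D1709A, at 1.55 and 431 CPM with K70A and at 2.52 and 45.2 CPM in the knockout. The reference used here holds no nuclear tRNA and no 45S rRNA, so matches of the pair to those RNAs were not searched. The cause of the levels of the 19 nt insert was not tested.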

How the results depend on the processing

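The 43 arms that fell became 59 with the replicate block, 66 at a mean of 10 CPM or more, 18 with only the 4 libraries in the fit and 135 with DESeq2 on the same library scale, and leaving out 1 library gave 10 to 54. TMM called 1 arm, which rose, and DESeq2 size factors 34. Both are computed from the miRNA arms, most of which were lower, and the snoRNA and snRNA scale gave 31 arms, all lower. Relative to miRNA reads, the 1 arm called became 4 with the replicate block, 0 at a mean of 10 CPM or more, 0 without knockout replicate 1 in the fit, 18 and 34 with DESeq2 on the same scale and with size factors, and 0 to 1 without 1 library. Other small RNA genes went from 0 to 3 and 1 with these DESeq2 fits and from 0 to 1 without 1 library, and ratios gave 0 in every fit run. The replicate numbers were not shown to pair the libraries: the correlation of same-numbered deviations was 0.12 over 540 arms, from 2 pairs.

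Log2 changes turned positive with DESeq2 size factors for miR-22-3p (1.21), miR-21a-5p (3.49), miR-29b-3p (0.43), let-7b-5p (2.58), miR-31-5p (2.14), miR-125b-5p (1.99), let-7e-5p (6.08), miR-30a-5p (4.62), miR-423-5p (6.57), miR-16-3p (7.39), miR-532-5p (6.83) and miR-206-3p (3.11). TMM turned miR-21a-5p (1.27), let-7b-5p (0.32), let-7e-5p (3.86), miR-30a-5p (2.39), miR-423-5p (4.34), miR-16-3p (4.85), miR-532-5p (4.73) and miR-206-3p (0.60).

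Without 1 library the ranges that include a turned sign were -4.87 to 0.29 for miR-423-5p, -3.85 to 0.20 for miR-16-3p, -1.81 to 1.30 for miR-532-5p, 0 to 10.01 for miR-451a-5p and -7.35 to 4.21 for miR-206-3p. In percentage points they were -0.0784 to 1.29 for C/D box snoRNA, -0.612 to 3.72 for inserts of 15 to 17 nt, -16.6 to 14.1 for those over 36 nt (main -1.22, and 1.24 with 8 adapter bases required) and -9.87 to 2.53 for 21 to 23 nt without hairpins and adapter products. Loop-spanning reads ranged from -1645 to 2139 CPM. The causes were not tested. A count of 3 reads is worth 0.158 to 0.208 CPM in these libraries, which limits the arms read least.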
